A study of Homo sapiens with 12 samples.

Results

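The MYC, MAX and MXD network is the family of basic helix-loop-helix leucine zipper transcription factors built around MAX. Its members were taken by gene symbol from the normalized tables of the 2 cell lines: MYC, MYCL, MYCN, MAX, MNT, MGA, MXD1, MXD3 and MXD4. All 9 were found among 60314 entries with a symbol, and 8 of them passed the filter on low values in each line. MYCN did not pass.

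RNA sequencing was run on 12 libraries of 2 human prostate cancer lines, C4-2B and 22RV1 (labelled RV1 in the sample titles), in 4 groups of 3. C4-2B derives from the androgen-sensitive line LNCaP through passage in castrated mice, and 22RV1 derives from a xenograft that relapsed after castration. All cells had the genotype label WT and were kept in glutamine-free RPMI medium with fetal bovine serum. L-glutamine was supplied at 2 mM for 48 h. The controls had L-glutamine alone, and the treated cells had in addition the 56-mer, the aptamer of the series title, at 50 nM. Each line is 1 established line. The series text calls the 3 libraries of a group biological triplicates, and the p-values measure the spread between these libraries.

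As background, MYC and its relatives MYCL and MYCN cannot act alone: each pairs with MAX to bind the E-box sequence CACGTG and raises transcription of genes for growth, ribosome production and metabolism. The MXD proteins and MNT compete for the same partner, bind the same sequence and recruit SIN3 and histone deacetylases, which lowers transcription. MGA also pairs with MAX and is the scaffold of a Polycomb complex, PRC1.6. In prostate cancer, MYC is often gained or overexpressed.

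The libraries held between 8847368 and 13740386 reads after the size factors were undone. All 8 prostate epithelial markers checked were above 0 in every library. In counts per library scaled to 1000000 recovered reads (CPM), their summed level was 3227 to 3316 in C4-2B controls and 3190 to 3378 with 56-mer, and 2748 to 2846 and 2731 to 2824 in 22RV1. Of the leukocyte, endothelial and fibroblast markers, CD3E was at 0 in all 12 libraries. The summed level of the 11 such markers was 32.9 to 55.1 CPM in C4-2B and 27.3 to 36.7 in 22RV1.

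The controls of both lines had MYC and MAX at levels that overlapped, and differed in their MAX-binding repressors. C4-2B had more MXD3, and 22RV1 had more MGA and MXD1. Because the authors normalized each line separately, levels between lines are given in CPM and were not tested. A gene was counted as different where the means were at least 2-fold apart and the 3 control libraries of one line did not overlap those of the other. That held for 3 of the 8 members with at least 10 reads in at least 3 control libraries, against 53.3% of the 20207 genes with as many. It held for 2 members higher in 22RV1 (background 39.3%) and 1 higher in C4-2B (background 14.0%). The members' share lies under the background.

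MGA stood at 25.5, 22.1 and 24.4 CPM in the C4-2B controls and at 201, 204 and 181 in the 22RV1 controls. The lowest 22RV1 library was far above the highest of C4-2B. The means were 24.0 ± 1.76 (SD, n = 3) and 195 ± 12.9 (SD, n = 3) CPM, an 8.14-fold difference. MXD1, a MAX partner first known from differentiating cells, stood at 3.01, 4.10 and 6.09 CPM in C4-2B and at 26.3, 27.6 and 28.0 in 22RV1. The groups again did not overlap. The means were 4.40 ± 1.56 and 27.3 ± 0.905 CPM (SD, n = 3), a 6.21-fold difference that rests on 33 to 83 reads per library in C4-2B.

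MXD3, a member linked to proliferating cells, went the other way. Its level was 396, 379 and 363 CPM in the C4-2B controls and 91.8, 102 and 104 in the 22RV1 controls, 3.81-fold higher in C4-2B with no overlap. MXD3 shares 1158 of its 5154 annotated exon bases, 22.5%, with PRELID1 on the opposite strand and 926, 18.0%, with RAB24 on its own strand. PRELID1, which encodes a mitochondrial lipid transfer protein, was at 435 ± 8.04 CPM in C4-2B and 127 ± 3.60 in 22RV1 (SD, n = 3), so it was 3.43-fold higher in C4-2B. Whether the counting used strand is not given, so reads of MXD3 and PRELID1 cannot be told apart in the shared bases.

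The other 5 members with enough reads were within 2-fold between lines. MYC was 196 ± 8.22 CPM in C4-2B and 220.2 ± 20.2 in 22RV1 (SD, n = 3), and the libraries overlapped. MAX, the shared partner, was 54.0 ± 5.92 and 47.5 ± 6.37 CPM, with overlap. MYCL, the relative of MYC first found in lung cancer, was 8.44 ± 1.38 and 10.8 ± 2.52, also with overlap. MXD4 was 123 ± 5.03 CPM in C4-2B and 76.6 ± 5.83 in 22RV1, a log2 ratio of -0.68, with no overlap. MNT, the repressor found in most cell types, was 78.4 ± 9.08 and 61.7 ± 3.03, also without overlap.

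**Figure D1:**
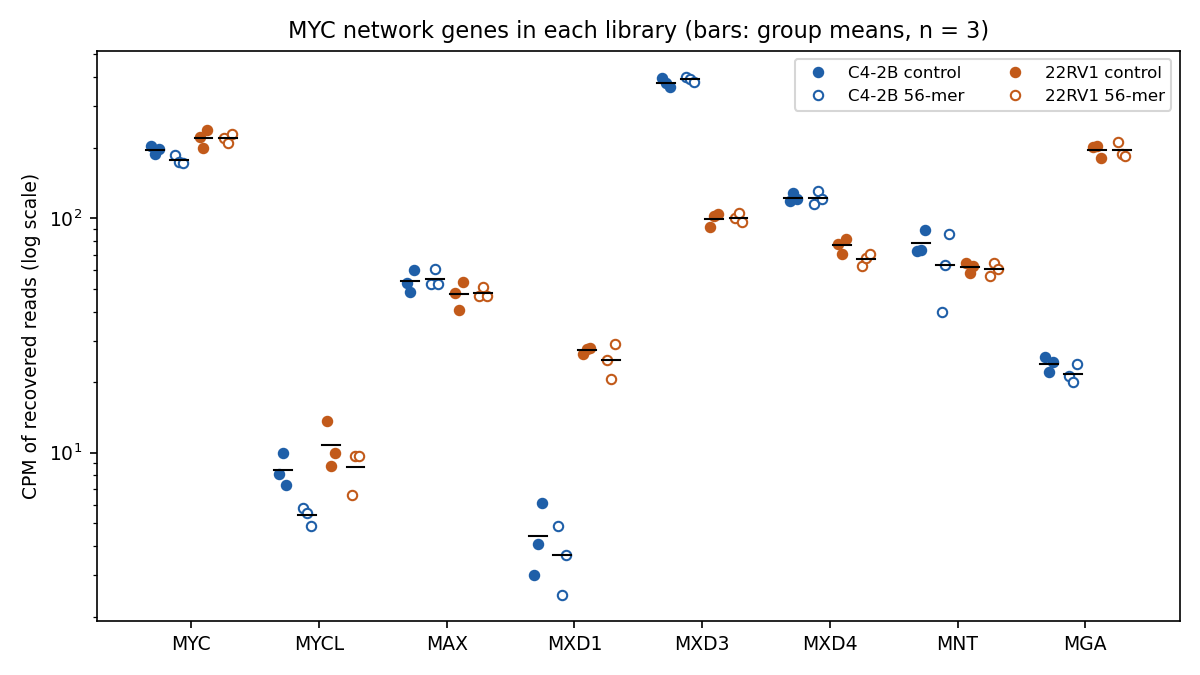
CPM of recovered reads (log axis) of 8 members in each of the 12 libraries; filled points are controls, open points 56-mer, blue C4-2B, orange 22RV1, and bars are means of 3. MGA and MXD1 sit higher in 22RV1 and MXD3 higher in C4-2B, while control and 56-mer points of a line lie close together for most genes. MYCN, at or near 0, is not drawn.

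MYCN had no read in any of the 6 C4-2B libraries. In 22RV1 it had 3 reads in 1 control library and 4 reads in 1 56-mer library, and none in the other 4. MYC, by comparison, had between 1851 and 3246 reads per library in 22RV1.

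The ratio between the lines moved with gene structure across the transcriptome. The median log2 ratio of 22RV1 over C4-2B was 0.15 over 11012 well-read genes, and the same 3 members passed the rule when levels were centred on it. Over 10775 genes, the log2 ratio of 22RV1 over C4-2B had a Spearman rho of -0.39 with GC content and of 0.47 with transcript length, given as a description across genes. MGA has a long, GC-poor transcript of 14439 bases, and the trend for such genes was 1.64 on the log2 scale. The MGA log2 ratio was 3.03 before that trend was taken off and 1.39 after. For MXD1 the log2 ratio went from 2.64 to 1.76, and for MXD3 from -1.93 to -1.19. Each of the 3 stayed past 2-fold, and the part of the trend in the remaining differences was not tested. The correction was chosen after the data had been seen.

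**Figure D2:**
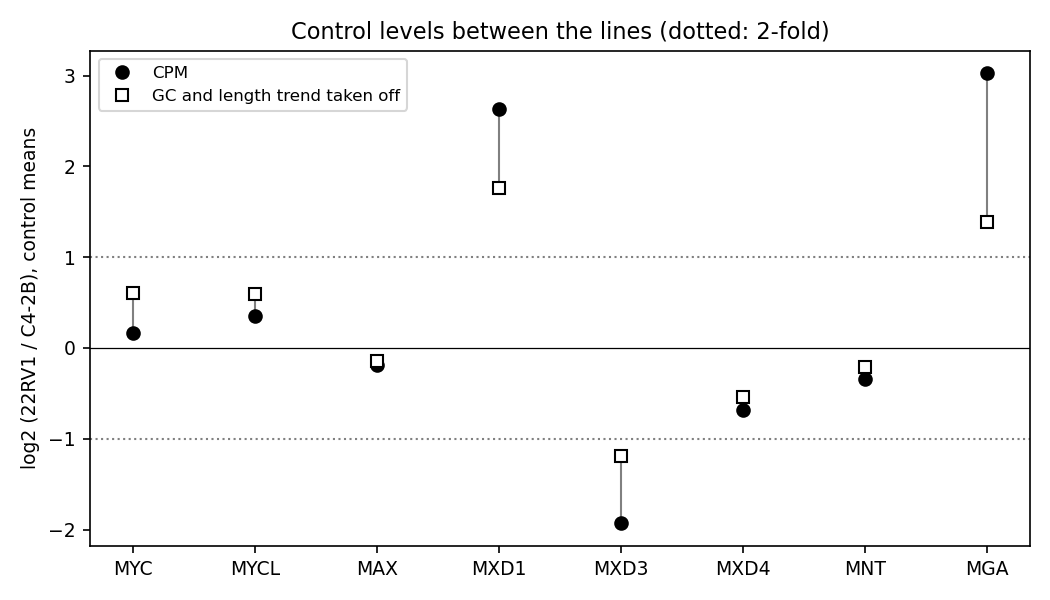
Log2 ratio of the control mean in 22RV1 over that in C4-2B for 8 members, in CPM (filled circles) and after the transcriptome-wide trend with GC content and length was taken off (open squares); dotted lines mark 2-fold. MGA and MXD1 stay above the upper line and MXD3 below the lower one on both scales.

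Levels per length were used to order the members within each line. Division by a gene's length leaves its ratio between the lines unchanged. The trend with GC content and length was not taken off these levels or the shares below. In CPM divided by the kilobases of annotated exon, the order in C4-2B controls was MXD3 at 73.6 ± 3.16, MYC at 65.3 ± 2.74, MXD4 at 17.4 ± 0.712, MAX at 12.2 ± 1.34 and MNT at 8.98 ± 1.04 (SD, n = 3). MYCL at 1.67 ± 0.272 and MGA at 1.36 ± 0.0995 followed and overlapped each other, and MXD1 came last of the detected members at 0.693 ± 0.246. In 22RV1 controls MYC led at 73.4 ± 6.72, ahead of MXD3 at 19.3 ± 1.31. MGA at 11.1 ± 0.729, MXD4 at 10.9 ± 0.826 and MAX at 10.7 ± 1.44 overlapped and have no order, and MNT at 7.07 ± 0.348, MXD1 at 4.30 ± 0.143 and MYCL at 2.13 ± 0.498 followed. MYC ranked at percentile 96.8 of the 24198 genes detected in C4-2B and 98.8 of the 32830 detected in 22RV1 on this scale. The percentiles rest on different sets of genes and do not compare MYC between the lines. With the longest transcript as the length, MAX and MNT overlapped in C4-2B while MYCL and MGA did not, and MXD4, MAX, MGA and MNT overlapped their neighbours in 22RV1.

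As a share of the sum over the members per length, MYC made up 36.0% ± 0.737 of the network in C4-2B controls and 52.8% ± 1.51 in 22RV1 controls (SD, n = 3). MXD1, MXD3 and MXD4 together made up 50.6% ± 1.51 and 24.9% ± 1.39. MXI1, the remaining MXD family gene, is not among the members and is in neither sum. Its level was 71.0 CPM in C4-2B and 62.3 in 22RV1 controls. MXD3 alone gave 40.6% ± 1.42 of the sum in C4-2B and 13.9% ± 1.29 in 22RV1. Whether reads of the PRELID1 overlap are in the MXD3 count is not known. MNT and MGA together made up 5.71% in C4-2B and 13.1% in 22RV1, of which MGA alone gave 0.749% and 8.01%. The shares depend on the length used: with the longest transcript MXD3 made up 52.6% in C4-2B and 21.4% in 22RV1 controls, and MYC 26.2% and 45.6%.

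With 56-mer some C4-2B shares lay outside their controls. MXD3 ran from 39.0% to 41.4% of the sum in the controls and from 42.8% to 44.4% with 56-mer, and MXD1, MXD3 and MXD4 together from 49.0% to 52.0% and from 53.1% to 54.2%. MYC, MYCL and MYCN together ran from 36.3% to 37.5% and from 33.3% to 36.0%. MYCL alone ran from 0.793% to 1.11% and from 0.558% to 0.655%. MYC alone overlapped with the annotated exon length, at 35.2% to 36.6% and 32.7% to 35.3%. With the longest transcript as the length it did not, at 25.5% to 26.6% and 23.4% to 25.3%. These shares were not tested, and a share moves when any other member does. MXD3 itself overlapped between the groups in normalized counts. On normalized counts, control and 56-mer groups did not overlap for 14.7% of genes in C4-2B and 9.03% in 22RV1. No such background was made for shares. Trends of single libraries with GC content and length were not taken off the shares. In 22RV1 the shares of MYC, of MXD3 and of MXD1, MXD3 and MXD4 together overlapped between control and 56-mer. The MXD4 share in 22RV1 did not, at 7.69% to 7.88% in controls and 6.49% to 7.14% with 56-mer, and was not tested either. These are shares of transcripts, and protein was not measured.

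**Figure D3:**
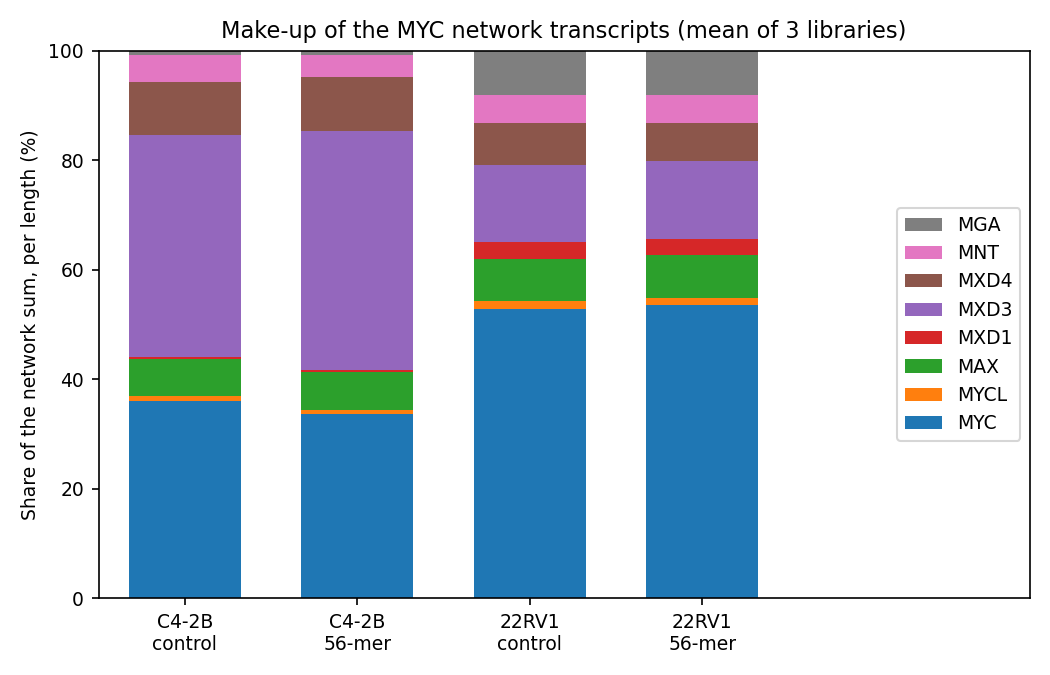
Mean share of each member in the summed network transcripts per length, in percent, for the 4 groups of 3 libraries. MXD3 takes the largest block in C4-2B and MYC in 22RV1. With 56-mer the MXD3 block in C4-2B goes from 40.6% to 43.5%, and in 22RV1 from 13.9% to 14.3%.

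Genes around the network were set against the same 2-fold rule, in CPM. The trend with GC content and transcript length was taken off for the members only. How much of it lies in the ratios of these genes was not tested. PVT1, the long noncoding RNA next to MYC, was 28.2 ± 3.59 CPM in C4-2B and 112 ± 12.9 in 22RV1 (SD, n = 3), while MYC itself overlapped. None of the 4 related partners passed the rule: MXI1, the remaining MXD family gene, was at 71.0 and 62.3 CPM, and MLX, which pairs with MXD proteins and with the glucose sensors, was at 119 and 82.8. Of 9 genes for MYC protein turnover, FBXW7, the ubiquitin ligase subunit that marks phosphorylated MYC, was higher in 22RV1 (7.80 against 26.8 CPM). CIP2A, an inhibitor of the phosphatase that destabilizes MYC, was also higher there, and the kinase gene AURKA was higher in C4-2B. Of 16 coactivators, TRRAP, EP400, BPTF, CCNT1 and EP300 were higher in 22RV1 and KAT5 in C4-2B. Of the 7 corepressors, SUDS3 and NCOR1 were higher in 22RV1, and of 8 partners of MGA in PRC1.6, RNF2 was. Of 39 MYC-activated targets, 5 were higher in each line, and of 9 MYC-repressed targets 4 were higher in 22RV1 (CDKN1A, CDKN1B, CDKN2B and THBS1) and NDRG1 was higher in C4-2B. The shares of these lists with more than 1 measured gene lie under the background of 53.3%, except that of the repressed targets, 5 of 9, which lies near it. PVT1 was the only measured gene of its list. By direction, the background was 39.3% of genes higher in 22RV1 and 14.0% higher in C4-2B.

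The 56-mer comparison asked whether the network's transcripts change when the aptamer is added to cells with the same glutamine. No member was called in either line with limma at an adjusted p of 0.05. In C4-2B that was 0 of 8, against 0.066% of 16657 genes, and in 22RV1 0 of 8, against 0.00975% of 20517. At an unadjusted p under 0.05 the count was also 0 of 8 in each line, against 8.92% and 3.91% of genes, and edgeR on the recovered reads called 0 as well. DESeq2 called 0, but gave an adjusted p for only 3 of the 8 members in C4-2B, against 8 of 8 in 22RV1. Under some other settings 1 member was under an unadjusted p of 0.05. In C4-2B that was MYCL with equal totals (p 0.0456) or without trend and robust variance (p 0.0123), and MNT with no filter (p 0.00932). In 22RV1 it was MXD4 with equal totals (p 0.0492). The median log2 change of the members was -0.10 in C4-2B, where that of all genes was -0.011, and 0.0014 in 22RV1, where that of all genes was -0.0026.

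MYC in C4-2B stood at 2395, 2189.95 and 2272 normalized counts in the controls and at 2256, 2065 and 2052 with 56-mer. The groups overlapped. The log2 change was -0.11 ± 0.084 (SE, 95% interval -0.28 to 0.067), with an adjusted p of 0.746 from limma. In 22RV1 MYC stood at 2668, 2389 and 2856 normalized counts in the controls and at 2709, 2529 and 2745 with 56-mer, a log2 change of 0.016 ± 0.074 (SE, interval -0.13 to 0.16). The C4-2B interval reaches down to -0.28, and the 22RV1 interval to -0.13.

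MYCL was the member with the largest estimated fall. It stood at 95.3, 116 and 83.9 normalized counts in the C4-2B controls and at 70.6, 65.8 and 58.5 with 56-mer, so every treated library was under every control. Such a separation was found for 1 of 8 members in C4-2B, against 14.7% of genes. It was downward for that 1 member and upward for none, against 7.08% and 7.59% of genes. The log2 change was -0.58 ± 0.30 (SE, interval -1.20 to 0.029), with an unadjusted p of 0.0609 and an adjusted p of 0.583 from limma. In 22RV1 MYCL stood at 163, 106 and 119 normalized counts in the controls and at 81.2, 118 and 117 with 56-mer, with overlap and a log2 change of -0.29 ± 0.22 (SE). That value was -0.11 without the first control library and -0.12 without the first 56-mer library.

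MAX did not separate the groups in either line. It stood at 623, 568 and 696 normalized counts in C4-2B controls and at 632, 723 and 625 with 56-mer. In 22RV1 it stood at 575, 490.3 and 639.6 and at 571, 615 and 560.3. The log2 changes were 0.071 ± 0.13 and 0.042 ± 0.11 (SE).

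Among the repressors, MXD4 in 22RV1 was the other member whose groups did not overlap. It stood at 929, 846 and 979 normalized counts in the controls and at 765, 819.8 and 843 with 56-mer. Groups that do not overlap were found for 1 of 8 members in 22RV1, against 9.03% of genes. The shares were 4.58% of genes downward and 4.45% upward. The log2 change was -0.18 ± 0.097 (SE, interval -0.38 to 0.016), with an unadjusted p of 0.0710 and an adjusted p of 0.99958 from limma. In C4-2B MXD4 stood at 1391, 1498 and 1401 and at 1388, 1566 and 1452, with a log2 change of 0.037 ± 0.094 (SE). The difference between the lines, -0.22 ± 0.13 (SE, interval -0.48 to 0.048), was not called either, with an adjusted p of 0.690.

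MXD3 stood at 4653, 4424 and 4194 normalized counts in C4-2B controls and at 4868, 4709.9 and 4559.7 with 56-mer, and the groups overlapped. The log2 change was 0.092 ± 0.071 (SE, interval -0.055 to 0.24), and 0.010 after the GC and length correction. In 22RV1 it stood at 1099, 1230.3 and 1248 and at 1228, 1271 and 1161, a change of 0.034 ± 0.088 (SE). The ratio of MXD3 to PRELID1 ran from 0.853 to 0.898 in C4-2B controls and from 0.785 to 0.850 with 56-mer. In 22RV1 it ran from 0.702 to 0.844 and from 0.784 to 0.909. MXD1 had a log2 change of -0.21 ± 0.41 in C4-2B, where it had few reads, and of -0.13 ± 0.14 in 22RV1 (SE).

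MNT had the most uneven treated group. In C4-2B it stood at 857, 858 and 1026 normalized counts in the controls and at 480.4, 755 and 1027 with 56-mer. The lowest and the highest of the 6 libraries were both treated. The log2 change was -0.34 ± 0.28 (SE, interval -1.01 to 0.33). Without the first 56-mer library it was -0.048, and without the third it was -0.60 with an adjusted p of 0.335. Across 10457 genes, the deviation of that first library from the line mean had a Spearman rho of -0.33 with transcript length. With GC content the rho was -0.18, against 0.30 and 0.32 in the other 56-mer libraries. After a GC and length correction the MNT change was -0.35 ± 0.17 (SE), with an adjusted p of 0.628 from limma. MNT shares 1065 of its 8728 annotated exon bases, 12.2%, with AC006435.1 on the opposite strand. That gene was at 27.7 ± 2.59 CPM in C4-2B controls and 18.9 ± 2.41 with 56-mer (SD, n = 3). In 22RV1 it was at 19.4 ± 1.80 and 18.5 ± 0.862. Whether its reads are in the MNT count is not known. In 22RV1 MNT stood at 769.9, 701 and 747 and at 697, 776 and 732, a log2 change of -0.0092 ± 0.10 (SE). MGA, the Polycomb scaffold, changed by -0.099 ± 0.17 in C4-2B and by 0.012 ± 0.076 in 22RV1 (log2, SE).

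The difference of the 56-mer change between the lines was tested in 1 fit of all 12 libraries. It was called for 0 of 8 members, against 0.0% of 15527 genes, and 0 of 8 were under an unadjusted p of 0.05, against 7.9%. For MYC it was 0.12 ± 0.11 (SE, interval -0.11 to 0.35). For MNT it was 0.33 ± 0.28 (SE), with an adjusted p of 0.789. With 1 library left out the MNT difference ran from 0.039 to 0.59, the latter without the third C4-2B 56-mer library (p 0.00730, adjusted p 0.430 from limma). In the authors' deposited table the C4-2B log2 change was -0.11 for MYC, -0.60 for MYCL and -0.28 for MNT, and the 22RV1 change was -0.18 for MXD4.

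**Figure D4:**
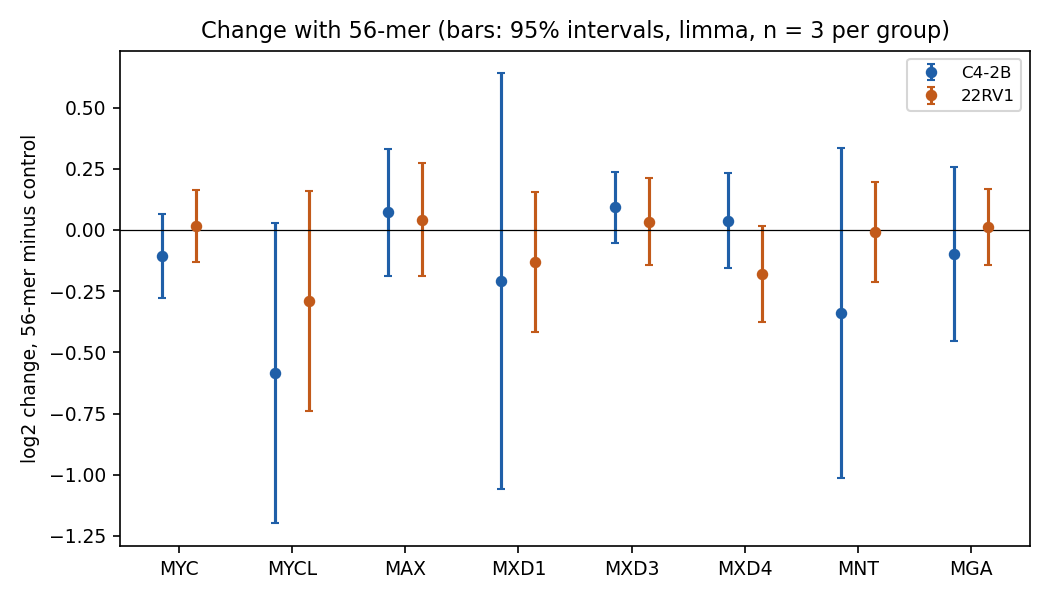
Log2 change with 56-mer against control for 8 members in C4-2B (blue) and 22RV1 (orange); points are limma estimates and bars 95% intervals, with 3 libraries per group. Every interval spans 0, and the widest are those of MXD1, MNT and MYCL in C4-2B.

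The DNA sequence that the network reads was looked for in promoter windows from 250 bases before to 50 bases after the start site, in RefSeq sequence of build GRCh38.p14. Of the 9 members 8 matched an entry; MYC did not. CACGTG, which reads the same on both strands, was in the window of 8.77% of 27305 genes. It was in 2 of the 8 members, MNT and MXD4, and in 17 of 34 matched genes of the MYC-activated list, which was drawn up from genes known as direct targets. The 30 bases around the motif are shown for these 2 members and for 4 of the activated targets: ornithine decarboxylase, the cyclin-dependent kinase CDK4, lactate dehydrogenase A and spermidine synthase. MNT, MXD4 and SRM hold 1 such motif in the window, ODC1 and LDHA 2 and CDK4 3, of which the 1 nearest to the start site on its upstream side is shown. Capitals mark the motif, and each line is written 5′ to 3′ on the strand of the gene.
MNT, chr17:2401236-2401265, minus strand: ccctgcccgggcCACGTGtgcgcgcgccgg
MXD4, chr4:2262330-2262359, minus strand: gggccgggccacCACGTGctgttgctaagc
ODC1, chr2:10448024-10448053, minus strand: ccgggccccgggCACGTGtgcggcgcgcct
CDK4, chr12:57752394-57752423, minus strand: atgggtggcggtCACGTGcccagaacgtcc
LDHA, chr11:18394464-18394493, plus strand: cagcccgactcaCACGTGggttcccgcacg
SRM, chr1:11060200-11060229, minus strand: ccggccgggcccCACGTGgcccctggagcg
The motif begins at position -193 from the start site in MNT and at -238 in MXD4. Of the 9 matched MYC-repressed genes, 1, CCNG2, held it. A match is a description of the letters, and binding was not measured.

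No gene of the lists around the network was called with 56-mer in either line. In C4-2B 28 of the 39 MYC-activated targets had a positive log2 change, with a median of 0.075, where 48.3% of all genes were positive. Of these 39, 7 had an unadjusted p under 0.05, against 8.92% of all genes, the share to set beside each such count in C4-2B. The 3 with the smallest p were SRM, at 0.33 ± 0.072 (SE) with an adjusted p of 0.105 from limma, the ribosome biogenesis factor BOP1 at 0.38 ± 0.095 and the nucleolar RNA-binding protein RRP9 at 0.35 ± 0.14. The mean of SRM was 3799 ± 203 normalized counts without 56-mer and 4779 ± 128 with it (SD, n = 3). Of 9 MYC-repressed genes, 6 had a negative change, with a median of -0.21, and 4 had an unadjusted p under 0.05. Among them CDKN1B, the cyclin-dependent kinase inhibitor p27, was at -0.32 ± 0.10 (SE), CCNG2 at -0.42 ± 0.14 and NDRG1 at -0.21 ± 0.071, with adjusted p between 0.397 and 0.399 from limma. The list changes were not corrected for GC content and length. The rho of a library's deviation with GC content was -0.20, -0.0049 and -0.21 in the C4-2B controls. With 56-mer it was -0.18, 0.30 and 0.32. The part of this trend in the list changes was not tested.

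In 22RV1, where 49.4% of all genes had a positive change and 3.91% an unadjusted p under 0.05, both medians were closer to 0. Of 39 activated targets 21 had a positive change, with a median of 0.0060 and none under an unadjusted p of 0.05. Of 10 repressed genes 9 had a positive change, with a median of 0.065, also with none. The means of SRM were 1103 ± 66.1 and 1102 ± 15.9 normalized counts (SD, n = 3). The difference between the lines had an adjusted p of 0.534 for SRM, BOP1, CDKN1B and NDRG1, so none was called.

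No cofactor gene was called. In C4-2B 3 of 16 coactivators had an unadjusted p under 0.05: the histone acetyltransferase genes EP300, at -0.41 ± 0.14 (SE), and KAT2A, at 0.29 ± 0.096, and the elongation kinase CDK9 at 0.35 ± 0.13. Their directions differed, and the list median was -0.0028. Of 7 corepressors only SUDS3, a subunit of the SIN3 complex, was under that p, at -0.34 ± 0.13 with an adjusted p of 0.456 from limma. Of the 9 turnover genes and the 8 MGA partners in PRC1.6 none was, with medians of -0.14 and 0.027. In 22RV1 NCOR1, a scaffold for histone deacetylases, was the only gene of these lists under that p, at 0.15 ± 0.068 (SE) with an adjusted p of 0.99958.

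**Figure D5:**
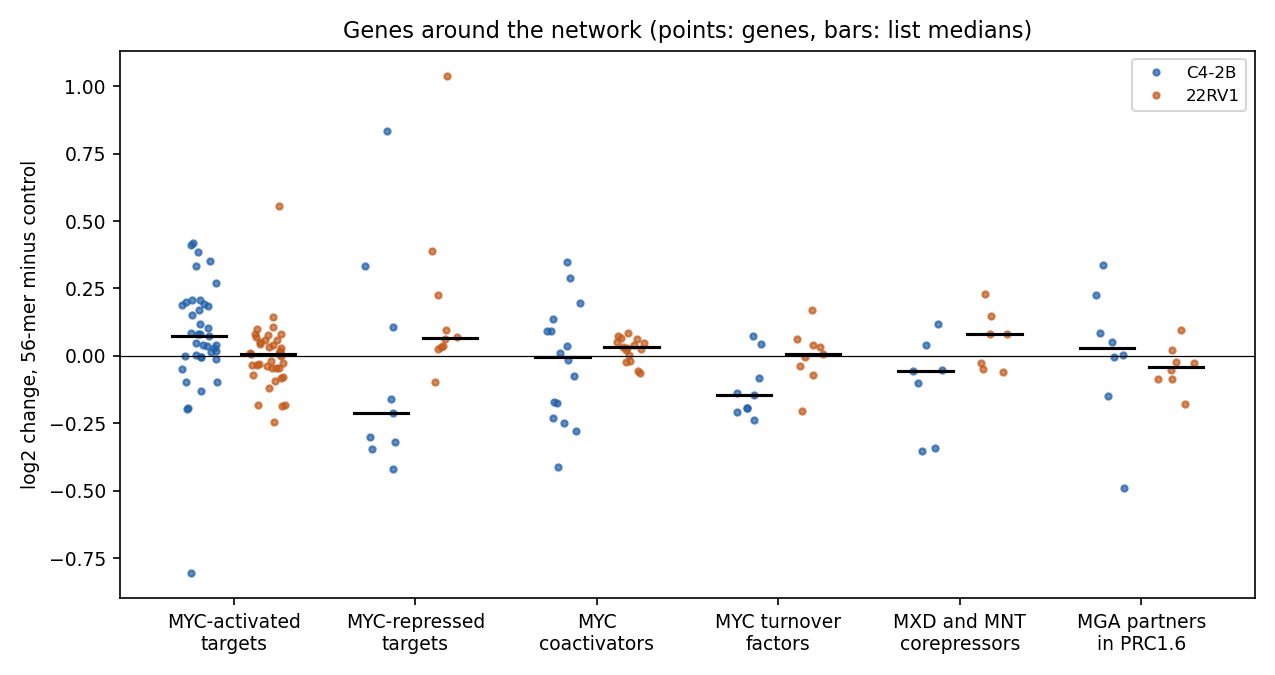
Log2 change with 56-mer against control for the tested genes of 6 lists around the network, in C4-2B (blue) and 22RV1 (orange), with points for genes and bars for list medians. In C4-2B the activated targets have a median of 0.075 and the repressed ones of -0.21, and in 22RV1 they lie at 0.0060 and 0.065. The lowest point among the activated targets is EIF4A1 in C4-2B, and the highest among the repressed ones are GAS1 in 22RV1 and PDGFRB in C4-2B. In the controls of those lines these genes had low means of 6.44, 0.622 and 1.04 CPM. None of them had an unadjusted p under 0.05 from limma there.

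The genes whose pattern was most like that of MYC were ranked by Pearson r over the 12 libraries, on log2 values from which each line's mean had been taken, among 15526 genes. DCAF6 had an r of 0.92, the noncoding AC090984.1 0.91, PTMA 0.88, UBAC1 0.86 and RAB3A 0.86. PTMA, which encodes prothymosin alpha, is also in the MYC-activated list. The points share their libraries, depth and size factors, and no test was made. Among the members, MYCL was highest at an r of 0.34 and rank 2524, MXD1 had 0.28, MAX 0.27, MGA 0.079, MXD4 0.0031 and MNT -0.085, and MXD3 was lowest at -0.15 and rank 10317.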

How the data were processed

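The authors deposited, for each line, 1 table of normalized signal per gene symbol (read counts divided by 1 size factor per library) and 1 comparison table with, per the file headers, a mean signal, a log2 fold change with its standard error, a score (the Wald statistic) and p-values. The submitters' processing notes name DESeq. Which aligner, counter, strand setting, build and annotation were used is not given in the sources used here. Every value was a whole multiple of 1 step per library within a tolerance of 0.01, for 100.0% of values, so the counts behind the tables could be recovered.

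For each line, genes that reached 10 normalized counts in 3 or more of 6 libraries entered a limma fit (version 3.58.1, R 4.3.3, with trend and robust options). Its values were log2 of normalized counts with a pseudocount of 1, and its tests were two-sided, with Benjamini-Hochberg adjustment over all genes tested and a threshold of 0.05. Fold changes are on that log2 scale, which understates changes of low genes. The difference between lines came from 1 limma fit of 12 libraries over genes that passed in both. Levels between lines used recovered reads scaled to 1000000 per library (CPM). Lengths, GC content and exon overlaps came from GENCODE release 29, which held 9 of 9 members and 91.6% of entries, and may differ from the annotation the authors used.

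Named in the text are all members and, for each list, up to 3 genes with the smallest p, together with the 5 genes most like MYC, plus genes past the 2-fold rule between lines. EIF4A1, GAS1, PDGFRB, PRELID1 and AC006435.1 were singled out after their values were seen. ODC1, CDK4, LDHA and SRM were picked for their motif as well-known targets, and CD3E as a marker at 0. The members and lists were chosen with earlier results of these data known. Alternatives were quantile and total scaling, other filters and pseudocounts, no trend or robust variance, edgeR 4.0.16 and DESeq2 1.42.0 on the recovered counts, and each library left out. A GC and length correction and shares by longest transcript were added after the data had been seen. The fit was tested on simulated data.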

Additional observations from a re-analysis of the deposited data

How the results depend on the processing

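Of the members that had an adjusted p, 0 were called in both lines and for the difference under each alternative run, and from 0 to 0 with a library left out. DESeq2 gave no adjusted p for 5 of 8 members in C4-2B and 4 of 8 in the difference, and the filter on a mean of 50 left 7 in C4-2B. At an unadjusted p under 0.05 there was 1 member without the third C4-2B 56-mer library (MNT, 0.00193) and 1 without the second 22RV1 control (MXD4, 0.0383). No paired analysis was possible because nothing in the labels ties a control library to a 56-mer library. The smallest adjusted p of a member over the alternatives was 0.335 in C4-2B, 0.794 in 22RV1 and 0.406 for the difference. Small log2 changes changed sign. With equal totals they became -0.0039 for MXD4 in C4-2B, and -0.00076 for MYC and -0.0046 for MGA in 22RV1. With quantile scaling they became -0.0047 for MYC and -0.0068 for MGA in 22RV1. With the GC and length correction they became 0.020 for MGA in C4-2B, 0.015 for MNT and -0.016 for MGA in 22RV1, and -0.035 for MXD1, -0.036 for MGA and 0.054 for MXD3 in the difference. Leaving out 1 library moved the change from -0.44 to 0.044 for MXD1 and from -0.0095 to 0.077 for MXD4 in C4-2B. For MYCL in 22RV1 it ran from -0.42 to -0.11. In 22RV1 it ran from -0.049 to 0.028 for MNT, from -0.060 to 0.13 for MAX, from -0.054 to 0.075 for MYC, from -0.057 to 0.054 for MGA and from -0.023 to 0.069 for MXD3. For the difference it ran from -0.17 to 0.31 for MXD1 and from -0.13 to 0.060 for MAX. The cause was not tested. Over all genes limma called 11 in C4-2B, 8 higher and 3 lower. Quantile scaling gave 2 higher and 8 lower, equal totals 4 and 7, edgeR 0 calls (1399 at an unadjusted p under 0.05), DESeq2 42, and leaving out the first 56-mer library 81, while leaving out any other library of the line gave 0. In 22RV1 2 were called and between 0 and 11 under the alternatives. For the difference 0 were called (1227 at an unadjusted p under 0.05), edgeR called 1, DESeq2 4 and the fit without the first C4-2B 56-mer library 13. Low reads limit MXD1 and MYCL in C4-2B, and MYCN in both lines.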
